A study of Mus musculus with 145 samples.

Results

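The keratin genes are described here across the sorted mouse cells of a large immune-cell expression survey, and mainly in the epithelium of the thymus. Members were all genes whose probe set carries a single annotated symbol made of Krt, a number and at most 1 letter, which leaves out the keratin-associated proteins. The rule found 52 genes, each with 1 probe set, among 19752 distinct genes with a single symbol. Of these, 28 encode type I and 24 type II keratins.

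Keratins build the intermediate filaments of epithelial cells, and each filament subunit pairs an acidic type I chain with a basic type II chain. Simple epithelia use Krt8 with Krt18, the basal layer of stratified epithelia uses Krt5 with Krt14, and cells leaving that layer in the epidermis switch to Krt1 with Krt10. In the thymus, Krt8 and Krt18 are the classical keratins of cortical epithelium and Krt5 and Krt14 those of medullary epithelium. Medullary epithelium is also known for transcribing many genes of other tissues, in part through the regulator Aire.

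The survey's arrays fall into 65 groups, of which 10 groups with 22 arrays are thymic epithelium and 55 groups are leukocytes, lymph node stroma and other cells. Of the 22 epithelial arrays, 13 carry titles that start with Ep and come from male C57BL/6 mice; their cells were sorted as negative for propidium iodide and CD45. They comprise CEChi, CEC.Sca1+, MEChi and MEClo cells at 8 weeks of age (2 arrays each), and MEClo, MEC.Sca1+ (2 arrays each) and MEChi cells (1 array) at 5 weeks. CEC and MEC are read as cortical and medullary epithelial cells, and hi and lo, by convention, as levels of MHC class II. The same positive sort markers are listed for all 7 of these groups, so the titles alone separate them. The other 9 arrays are MHC class II high, Ly51-negative and CD45-negative medullary cells of C57BL/6 mice of 5 weeks and mixed sex, sorted on another instrument as GFP+, GFP- or GFP+ from a knockout (KO), with 3 arrays each. The labels name neither the GFP reporter nor the knocked-out gene, and they do not say whether arrays came from separate animals, so p-values measure the spread between these arrays.

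Values are intensities on the linear scale, with array medians between 111.7 and 146.7, and each probe set has its own background, so no keratin's level is set against another's as an amount. Marker genes were compared with the titles. Psmb11, a proteasome subunit of cortical epithelium, read 2888 and 4255 in the CEChi arrays and at most 414 in the other 20 epithelial arrays. The sum over 8 cortical markers was 48407 and 50204 in CEChi. It was lower in CEC.Sca1+ (14485 and 15273) than in MEClo at 8 weeks (16573 and 17983). Its members went both ways between these groups. The means of Ctsl (6035 against 8699), Ccl25 (2930 against 4511), Dll4 and Psmb11 were lower in CEC.Sca1+. Those of Enpep (1061 against 83.5), Ly75 (985 against 375), Cxcl12 (639 against 205) and Prss16 (2804 against 2735) were higher. The sum over 7 medullary markers was 1107 and 1110 in CEC.Sca1+ against 7598 and 7875 in those MEClo arrays. Aire read 3825 and 4339 in MEChi at 8 weeks and 215 and 345 in MEClo. The class II gene H2-Ab1 was slightly higher in MEChi than in MEClo cells of 8 weeks, at 11855 and 11643 against 10292 and 11390. Summed over 7 genes, markers of thymocytes and T cells, which CD45 exclusion should remove, came to 4875 and 5151 in the CEChi arrays and to between 458 and 1688 in the other epithelial arrays. Bulk arrays cannot tell fewer cells of a kind from less RNA per cell.

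A set of 6 keratins was high in every thymic epithelial array. Krt8 read between 4153 and 9435 over the 22 arrays with a median of 6077, and at most 524 in any other array of the survey. Its partner Krt18 read 2981 to 8399, and at most 444 elsewhere. Krt17, a keratin of skin appendages and stressed epithelium, read 2112 to 6298 against at most 107. The basal keratins Krt5 and Krt14 read 828.9 to 7377 and 774 to 5466, against at most 106 and 164 elsewhere. Krt7, a type II keratin of ductal and simple epithelia, read 825 to 5456 against at most 215. For each of these 6 genes, all 22 epithelial arrays lay above all other arrays. These levels were described with no test.

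**Figure D1:**
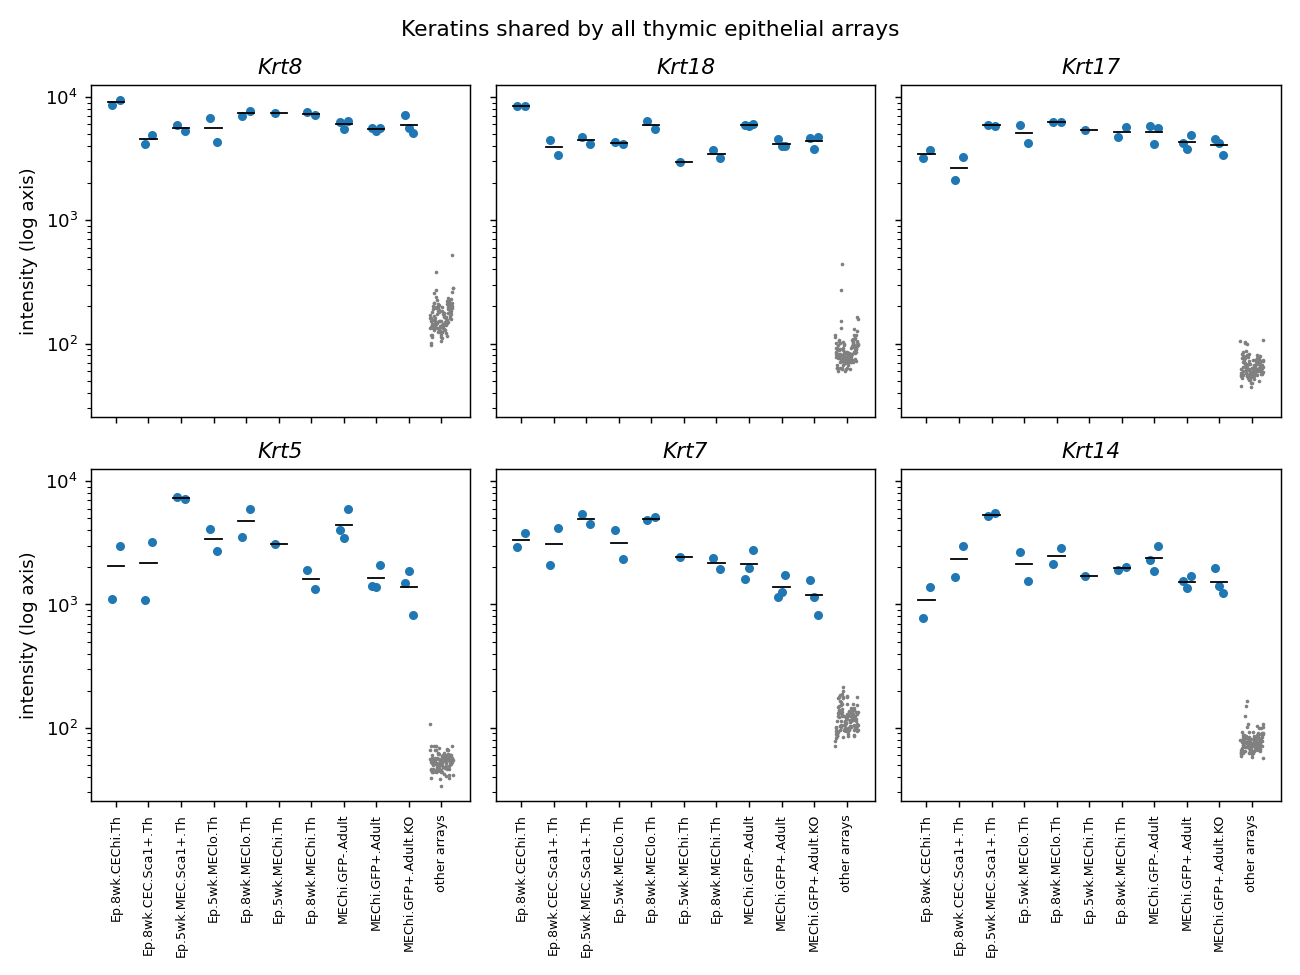
Intensity (log axis) of 6 keratin genes in each array of the 10 thymic epithelial groups and in all other arrays (grey); black lines are group means. All 22 epithelial arrays lie above every other array for each of the 6 genes, and Krt5 and Krt14 peak in the Sca1+ medullary group.

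Set against its own values outside the epithelium, each of 27 of the 52 genes rose above every other array in at least 1 epithelial array, and 25 did not. Krt4 and Krt12 did so in 1 array each, and Krt15 and Krt25 in 2 each. The same count was not made over all probe sets, so it is given as a description. Krt33b, a hair keratin, read 241 to 470 in the epithelium and 216 to 625.2 elsewhere, so its epithelial values lay within those of other cells. A single array of eosinophils from fat held the highest value outside the epithelium for 10 of the 52 keratins, and its share over all probe sets was not computed.

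The promoters of 36 of the 52 keratin genes could be matched to RefSeq sequence (GRCm38.p6). All type II keratins among the members lie on chromosome 15 and 27 of the 28 type I genes on chromosome 11; Krt18 is the exception and lies beside Krt8 on chromosome 15 with 0 protein-coding genes between them. The 250 bases before the annotated start are shown for that neighbouring pair and for Krt10 and Krt76, which differed between the medullary groups. Capitals mark TATAAA starting 20 to 40 bases before the start; the lines run 5′ to 3′ on the gene's strand, at chr15:102004343-102004592 (minus) for Krt8, chr15:102027966-102028215 (plus) for Krt18, chr11:99389365-99389614 (minus) for Krt10 and chr15:101892921-101893170 (minus) for Krt76.
Krt8: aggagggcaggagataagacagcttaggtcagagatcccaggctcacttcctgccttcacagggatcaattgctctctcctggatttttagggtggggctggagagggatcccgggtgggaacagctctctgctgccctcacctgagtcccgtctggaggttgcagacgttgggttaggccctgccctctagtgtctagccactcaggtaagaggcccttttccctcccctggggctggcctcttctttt
Krt18: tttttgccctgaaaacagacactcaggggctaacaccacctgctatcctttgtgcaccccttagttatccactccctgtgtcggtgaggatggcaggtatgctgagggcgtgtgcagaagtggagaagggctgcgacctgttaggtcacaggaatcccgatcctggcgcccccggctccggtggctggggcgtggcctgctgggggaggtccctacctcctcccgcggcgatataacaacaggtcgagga
Krt10: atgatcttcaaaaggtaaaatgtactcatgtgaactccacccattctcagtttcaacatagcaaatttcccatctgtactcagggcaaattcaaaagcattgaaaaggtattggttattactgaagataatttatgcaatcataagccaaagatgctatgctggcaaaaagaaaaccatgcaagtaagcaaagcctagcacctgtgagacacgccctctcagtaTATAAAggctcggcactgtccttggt
Krt76: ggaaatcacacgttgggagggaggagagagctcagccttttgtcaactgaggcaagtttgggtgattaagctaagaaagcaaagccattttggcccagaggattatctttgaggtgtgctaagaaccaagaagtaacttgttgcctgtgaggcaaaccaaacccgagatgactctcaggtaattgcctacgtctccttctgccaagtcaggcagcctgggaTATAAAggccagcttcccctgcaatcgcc

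TATAAA on either strand stood in that window in 13 of the 36 keratin promoters (36.1%), against 2.75% of 27025 genes. It began 26 bases before the start in Krt10 and 29 bases before it in Krt76. It was found in 0 of the 5 matched promoters of the 6 shared keratins. GGGCGG, the core of the GC box, was found on either strand of the 250 bases in 2 of the 36 (5.56%), Krt7 and Krt75, against 32.9% of all genes. TGANTCA, the AP-1 motif, was found in Krt13 alone (2.78%), against 6.87% of all genes. These matches describe letters in a window and were not tested for function.

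Between MEChi and MEClo cells at 8 weeks, most keratins that differed were higher in MEChi, and 4 were lower: the basal keratin Krt5 and the simple keratins Krt7, Krt18 and Krt19. Krt9, the keratin of palm and sole skin, read 308 and 261 in MEChi and 30.1 and 29.4 in MEClo. Krt20, known from gut and urothelium, read 501 and 523 against 63.4 and 72.8. Krt84, a hair and nail keratin, read 467 and 504 against 57.2 and 74.6. In each case both MEChi arrays lay above both MEClo arrays. The differences (limma, Benjamini-Hochberg adjusted) were 3.25 ± 0.16 (SE) on the log2 scale for Krt9 (adjusted p = 8.8e-08), 2.91 ± 0.14 for Krt20 (8.4e-08) and 2.89 ± 0.22 for Krt84 (1.7e-06).

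Keratins of other stratified tissues rose with them. Krt24 differed by 2.58 ± 0.22 log2, Krt76, a keratin of the oral mucosa, by 2.56 ± 0.15, the inner root sheath keratin Krt73 by 1.95 ± 0.14, Krt4, an oesophageal keratin, by 1.89 ± 0.20, and Krt71, the inner root sheath keratin, by 1.75 ± 0.15. The suprabasal partners Krt1 and Krt10 rose by 1.49 ± 0.16 and 1.12 ± 0.24. Krt10 read 1151 and 869 in MEChi against 378 and 558 in MEClo.

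The keratins that fell in MEChi were 4. Krt5 read 1904 and 1340 against 3504 and 5962, a difference of -1.52 ± 0.52 log2 (adjusted p = 0.04). Krt7 read 2396 and 1941 against 4830 and 5119 (-1.21 ± 0.32, 0.01). Krt19, a small keratin of ductal epithelium without a tail domain, fell by 0.86 log2 and Krt18 by 0.80. Krt8 read 7507 and 7110 against 7052 and 7728, and its difference of -0.02 ± 0.20 did not pass (adjusted p = 0.96). Krt14 and Krt17 did not pass either, at -0.33 ± 0.34 and -0.27 ± 0.22.

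Over all 52 keratins with no filter on low values, 30 passed the threshold, 26 higher and 4 lower in MEChi, while 30.3% of all probe sets passed. The median difference was 0.46 log2 for the keratins and -0.05 for all probe sets. With the filter, which keeps a probe set whose highest group mean reaches the median of the values fitted, 30 keratins were tested and 24 called, 20 higher and 4 lower, against 38.2% of probe sets called in all, 18.8% higher and 19.4% lower. Several members passed this filter through MEChi alone, so the second count is given as a description. Called members fell to 16 to 19 when 1 array was left out; Krt16, Krt19 and Krt23 lost their calls without any 1 of the 4 arrays, and Krt5 did so without either MEChi array or without the second MEClo array. Krt7 lost its call without the second array of either group, and Krt15, Krt80 and Krt87 without the first MEChi array or either MEClo array.

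By group, over every member with a probe set and no filter, 6 of 8 keratins of the suprabasal epidermis, 4 of 8 of the inner root sheath, 5 of 14 of hair and nail and 3 of 5 of activated or appendage epithelium were higher in MEChi, with 0 lower. Of 8 basal and stratified keratins 5 were higher and 1, Krt5, lower. Of 6 keratins of simple epithelia, 2 were higher (Krt20 and Krt23) and 3 lower (Krt7, Krt18 and Krt19). Genes of the cornified envelope, the protein shell of dead surface keratinocytes, were higher in 9 of 14 tested and lower in 0. Among them Sprr1b differed by 3.26 ± 0.33 log2 and Tgm3, a transglutaminase that crosslinks the envelope, by 2.11 ± 0.16. Casp14 and Lor passed the filter through MEChi cells (Casp14 averaged 177 there and 48.3 in MEClo), so the envelope count is a description. Desmosome and keratin-anchoring genes were lower in 8 of 16 and higher in 0, among them Dst, which ties keratins to the basement membrane, at -1.50 ± 0.15, and Eppk1, which binds keratin filaments, at -1.43 ± 0.20. Of 6 tested thymocyte and T cell markers, 4 were higher and 1 lower in MEChi, and the sum over the 7 with a probe set was 910 and 970 against 558 and 605. Among cortical markers, Ctsl (-2.14 ± 0.26 log2), Cxcl12 (-1.63 ± 0.19), Psmb11 (-1.61 ± 0.22) and Prss16 (-1.58 ± 0.32) were lower in MEChi, while Dll4 and Enpep were higher. The sum over 8 cortical markers was 9973 and 12096 against 16573 and 17983. The part of these markers in the keratin differences was not tested.

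**Figure D2:**
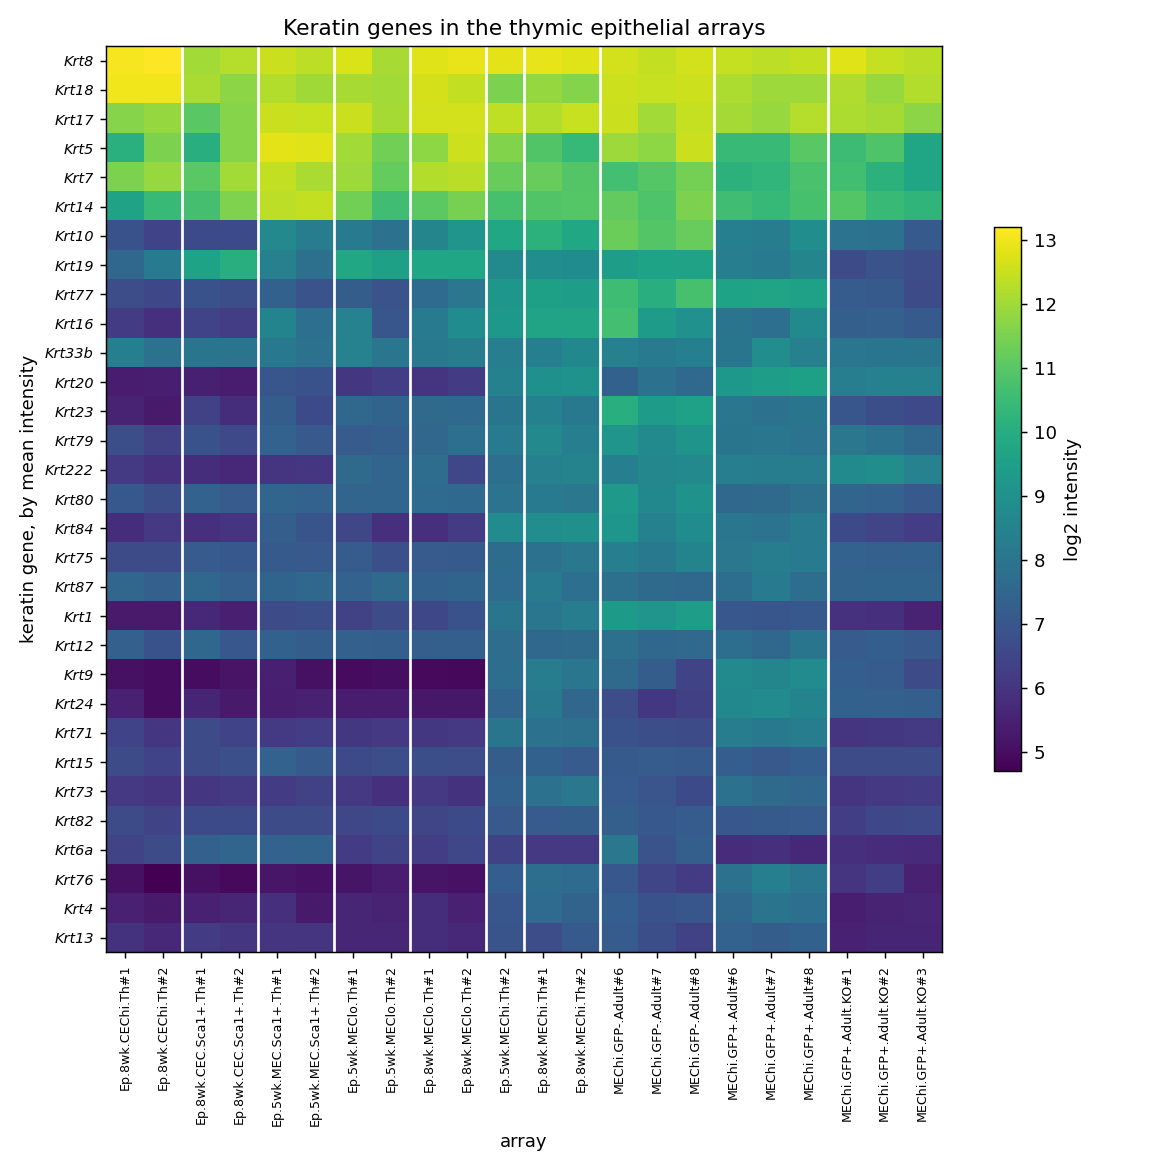
Log2 intensity (colour) of the keratin genes that entered the epithelial tests (rows, by mean level) in each of the 22 thymic epithelial arrays (columns, white lines between groups). The 6 shared keratins are bright in all arrays; Krt9, Krt20, Krt24 and Krt84 are brighter in MEChi than in MEClo, CEC or Sca1+ medullary arrays.

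Cortical and medullary cells titled hi at 8 weeks differed mainly in keratins that read low in cortical cells. Krt18 was the largest keratin difference towards the cortex: it read 8399 and 8398 in CEChi against 3681 and 3170 in MEChi (1.30 ± 0.16 log2, adjusted p = 5.1e-05). Krt6a, a keratin induced in wounded epidermis, was the other, at 86.7 and 102 against 69.9 and 69.1 (0.43 ± 0.15, 0.036), and it lost its call without the second CEChi array or without either MEChi array. Krt8 read 8608 and 9435 in CEChi, and its difference of 0.30 ± 0.20 did not pass (adjusted p = 0.23).

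The largest differences towards the medulla were in Krt16, Krt20 and Krt10. Krt16, the type I partner of Krt6 in activated epidermis, read 74.6 and 59.2 in CEChi against 817 and 822 in MEChi (-3.62 ± 0.40 log2, adjusted p = 1.7e-05). Krt10 read 114 and 84.6 against 1151 and 869 (-3.35 ± 0.24). Krt20 (-3.61 ± 0.14), Krt9 (-3.12 ± 0.16), Krt84 (-2.95 ± 0.22), Krt77 (-2.86 ± 0.19), Krt23 and Krt1 (both -2.85) followed. Krt77 is a type II keratin of the epidermis, and Krt23 a type I keratin of simple and glandular epithelia. In CEChi these 8 genes read between 31.5 and 114, near their levels in cells outside the epithelium. The basal pair was split by the test: Krt14 read 774 and 1383 in CEChi against 1906 and 2017 (-0.92 ± 0.34, adjusted p = 0.041, lost without either MEChi array or the first CEChi array), while Krt5 read 1106 and 2965 against 1904 and 1340 and did not pass (0.18 ± 0.52, adjusted p = 0.80).

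Over all 52 keratins with no filter, 33 passed, 2 higher and 31 lower in CEChi, against 38.9% of all probe sets; the keratin median was -0.62 log2 and the median of all probe sets 0.10. With the filter, 26 of 30 were called, 2 higher and 24 lower, against 47.9% of probe sets, 25.0% higher and 23.0% lower. Keratins such as Krt9 (mean 32.7 in CEChi) and Krt24 (37.9) passed the filter through medullary groups alone. The filtered keratin count is therefore a description. Both comparisons use the same MEChi arrays at 8 weeks. All 14 tested cornified envelope genes were lower in CEChi, among them Krtdap, a keratinocyte differentiation protein (-4.65 ± 0.28), and Rptn (-4.33 ± 0.22). Several, such as Rptn (mean 28.6 in CEChi) and Casp14 (39.4), passed the filter through medullary groups alone, so this count is a description. Desmosome and anchoring genes went both ways, with 6 of 16 higher (Dst 2.18 ± 0.15, Dsc3 1.83 ± 0.22) and 3 lower. All 6 tested thymocyte and T cell markers were higher in CEChi, with Cd8a at 1141 and 1193 against 116 and 118; their part in the keratin differences was not tested.

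Sca1+ cells were compared with CEChi cells in the cortex and with MEClo cells in the medulla; Krt6a was higher in Sca1+ cells in both, and Krt19 was higher in the first and lower in the second. In the cortex, Krt19 read 795 and 1054 in CEC.Sca1+ against 185 and 290 in CEChi, both Sca1+ arrays being higher (1.98 ± 0.24 log2, adjusted p = 2.9e-04). Krt18 read 4483 and 3374 against 8399 and 8398 (-1.11 ± 0.16, 0.001), and Krt8 read 4153 and 4897 against 8608 and 9435 (2.00-fold lower, SE 0.20 log2, adjusted p = 0.0062, a call lost without the second CEChi array). Krt6a was higher at 158 and 179 against 86.7 and 102 (0.84 ± 0.15). These 4 were all the keratins called, 2 in each direction, of 30 tested. That share, 13.3%, was about that of all probe sets, at 13.2% (6.01% higher and 7.22% lower). With the replicate number as a block, 7 keratins were called, and the share of all probe sets in that fit is not given. Over all 52 with no filter, 4 were also called, against 8.55%, with a median of 0.14 log2 beside 0.04 for all probe sets. All 8 cortical marker genes were lower in CEC.Sca1+, and 6 of 6 tested thymocyte markers were lower, their sum being 1059 and 1427 against 4875 and 5151. The sum of 6 fibroblast markers was 7390 and 9194 against 3091 and 3270, of which Dcn made 6516 and 8442 against 2503 and 2726. Their part in the keratin differences was not tested.

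In the medulla at 5 weeks, MEC.Sca1+ cells had the highest group means of Krt5 and Krt14 in the survey. Krt14 read 5242 and 5466 against 2670 and 1562 in MEClo (1.39 ± 0.34 log2, adjusted p = 0.033), and it lost its call without either Sca1+ array or without the second MEClo array. Krt5 read 7377 and 7106 against 4127 and 2701, a difference that did not pass (1.12 ± 0.52, adjusted p = 0.26). Krt6a read 167 and 172 against 74.0 and 87.6 (1.07 ± 0.15, 0.0014). Krt84 (0.91 ± 0.22), Krt20 (0.76 ± 0.14) and Krt15, a basal keratin of hair follicle stem cells (0.58 ± 0.15), were also called higher; the call of Krt15 was lost without any 1 of the 4 arrays and that of Krt84 without either Sca1+ array or the second MEClo array, and that of Krt20 without the first Sca1+ array. Krt19 ran the other way, at 338 and 229 against 887 and 738 (-1.54 ± 0.24, 0.0026), as did Krt222, a keratin-like gene, at 62.7 and 65.8 against 200 and 179 (-1.56 ± 0.29), a call lost without either Sca1+ array. In all, 7 of 30 tested keratins were called, 5 higher and 2 lower, against 6.23% of all probe sets, 2.33% higher and 3.90% lower; of all 52 with no filter, 8 were called, 6 higher and 2 lower, against 4.49%. With 1 array left out the count was between 2 and 7, falling to 2 without the first Sca1+ array, 3 without the second and 4 without the second MEClo array. The sum of the fibroblast markers was 3159 and 3683 in MEC.Sca1+ against 1789 and 2223 in MEClo. Dcn (2770 against 1370) was the only tested fibroblast marker called, and the part of the sum was not tested.

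The difference between both Sca1+ steps was itself tested in the same fit. For Krt19 the cortical step exceeded the medullary step by 3.53 ± 0.34 log2 (adjusted p = 9.9e-05). Krt18, Krt8 and Krt20 had a lower step in the cortex, by -1.17 ± 0.23, -1.04 ± 0.28 and -0.74 ± 0.20, and Krt23 a higher one, by 1.24 ± 0.32. Krt6a, Krt14, Krt15 and Krt84 did not pass this test. The 5 called of 30 tested keratins compare with 8.20% of all probe sets. The cortical step was measured at 8 weeks against CEChi and the medullary step at 5 weeks against MEClo, so age and the reference group cannot be told apart from the compartment.

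**Figure D3:**
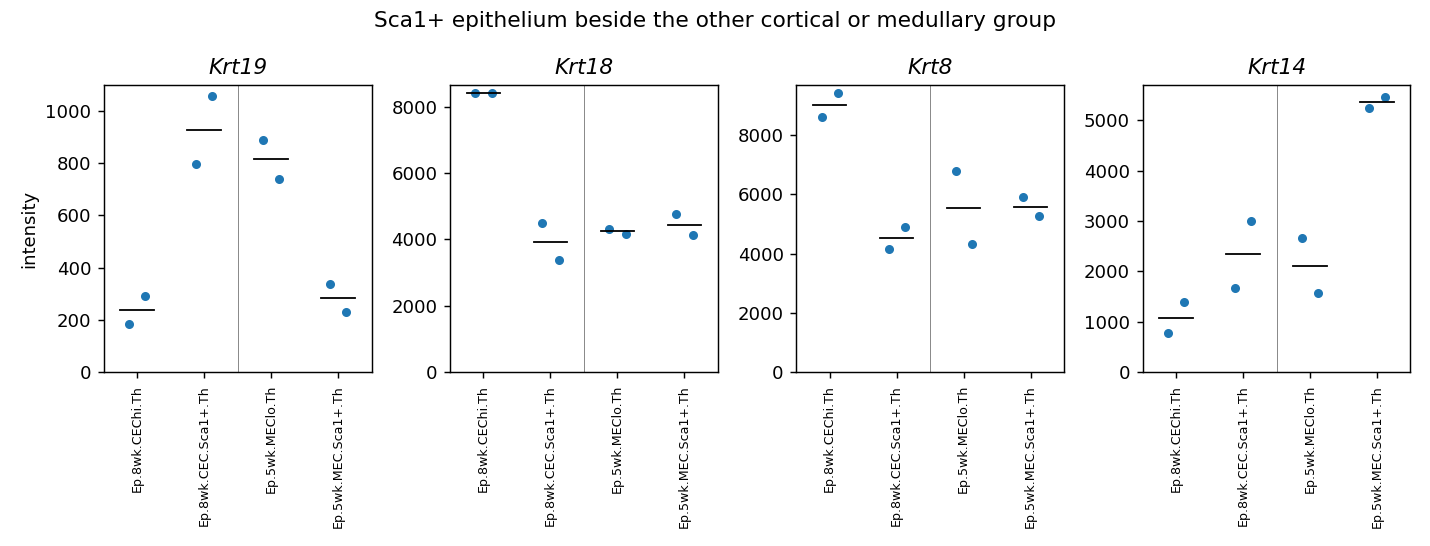
Intensity of 4 keratin genes in each array of the cortical groups (left of the line, 8 weeks) and medullary groups (right, 5 weeks); black lines are means of 2 arrays. Krt19 is higher in Sca1+ than in CEChi cells (795 and 1054 against 185 and 290) but lower in Sca1+ medullary than in MEClo cells (338 and 229 against 887 and 738).

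Between MEClo cells of 8 and 5 weeks, limma called 0 of 30 tested keratins, while 0.564% of all probe sets were called. An unadjusted p under 0.05 was reached by 6 keratins. The share of all probe sets at that unadjusted threshold is not given, so the 6 are a description. Krt77 had the smallest p, with means of 239 at 8 weeks and 132 at 5 weeks and no overlap (0.85 ± 0.19 log2, adjusted p = 0.12). The cortical markers Ccl25 (2.51 ± 0.24), Prss16, Psmb11 and Dll4 were called higher at 8 weeks, and the other cortical markers were not called. The sum over 8 cortical markers was 16573 and 17983 at 8 weeks against 7411 and 8979 at 5 weeks, and its part was not tested. The single MEChi array of 5 weeks was not compared, though it lay on the side of the 8-week MEChi arrays for Krt9 (218), Krt20 (350) and Krt84 (442).

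Within MHC class II high medullary cells, GFP+ and GFP- cells differed in 2 opposed sets of keratins. Krt10 read 2527, 1938 and 2420 in GFP- cells and 328, 318 and 463 in GFP+ cells, so the 3 GFP- arrays lay far above (-2.65 ± 0.23 log2, GFP+ minus GFP-, adjusted p = 8.6e-06). Its partner Krt1 read 640, 559 and 687 against 129, 127 and 130 (-2.28 ± 0.12). Krt23 (-1.67 ± 0.16), Krt6a (-1.63 ± 0.24), Krt16 (-1.50 ± 0.37), Krt5 (-1.44 ± 0.29), Krt80, a keratin tied to epithelial differentiation (-1.32 ± 0.16), and Krt19 (-1.19 ± 0.11) were also lower in GFP+ cells. Krt5 read 3989, 3455 and 5895 in GFP- cells against 1410, 1384 and 2085.

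The keratins higher in GFP+ cells included those of mucosa, hair sheath, gut and palm skin. Krt24 read 409, 451 and 370 in GFP+ cells against 105, 67.8 and 80.0 (2.30 ± 0.15 log2, adjusted p = 1.7e-06). Krt20 read 605, 715 and 747 against 164, 234 and 197 (1.81 ± 0.13). Krt9 (1.63 ± 0.26), Krt76 (1.56 ± 0.24), Krt71 (1.48 ± 0.09), Krt73 (0.78 ± 0.14), Krt4 (0.74 ± 0.14) and Krt13, an oesophageal keratin (0.55 ± 0.17, lost without GFP+ array 6 or 8 or GFP- array 8), completed the 8. In none of the 8 did the GFP+ and GFP- arrays overlap. Aire read 3605, 5203 and 4457 in GFP+ cells and 570, 772 and 495 in GFP- cells.

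In all, 21 of 31 tested keratins were called, 8 higher and 13 lower in GFP+ cells, against 49.4% of probe sets, 28.9% higher and 20.5% lower. Krt6a (mean 54.8 in GFP+ cells) passed the filter through GFP- cells alone, so this count is a description. Of all 52 with no filter, 26 passed, 11 higher and 15 lower, against 36.2% of probe sets. The median difference over the 52 was -0.08 log2, beside -0.02 for all probe sets. Of 8 suprabasal keratins with no filter, 6 were lower and 1 higher; of 8 inner root sheath keratins 3 were higher and 0 lower. Cornified envelope genes were lower in 11 of 16 (Krtdap -3.39 ± 0.51, Ivl, or involucrin, -2.42 ± 0.27) and higher in 1 (Lor, or loricrin, 0.54 ± 0.15). Ivl and Calm4 passed the filter through GFP- cells alone (means of 82.8 and 72.5 in GFP+ cells), so the envelope count is a description. Desmosome and anchoring genes were lower in 10 of 17 and higher in 1, and epithelial transcription factors lower in 8 of 11 and higher in 1 (Foxn1, 0.79 ± 0.13), the lower ones including Klf5 (-1.47 ± 0.24) and Klf4 (-1.39 ± 0.34). Of 12 keratinocyte markers, 10 (4 of them keratins described above) were lower in GFP+ cells, with sums of 8141 to 10366 against 19209 to 24319. The sums of thymocyte markers overlapped, at 926 to 1688 and 859 to 1516.

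KO GFP+ cells had lower keratins than control GFP+ cells in nearly every call. Krt77 read 143, 139 and 99.0 in KO cells against 799, 822 and 756 in control cells (-2.66 ± 0.19 log2, adjusted p = 2.1e-06). Krt4 read 42.8, 45.7 and 49.2 against 185, 249 and 226 (-2.25 ± 0.14), and Krt71 65.4, 67.3 and 71.3 against 307, 282 and 310 (-2.14 ± 0.09, 1.0e-07). All KO arrays lay below all control arrays for these genes, and their KO values were near those of cells outside the epithelium, whose medians are 99.6, 46.1 and 81.9. Krt76 (-2.18 ± 0.24), Krt13 (-1.75 ± 0.17), Krt9 (-1.70 ± 0.26), and Krt84 and Krt19 (both -1.62) followed. Krt19 read 103, 117 and 106 against 325, 293 and 385.

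Other keratins fell by less. Krt24 read 161, 159 and 156 in KO cells, still above the 67.8 to 105 of GFP- cells, and Krt20 read 327, 351 and 346 against 605, 715 and 747 (-1.01 ± 0.13). The shared keratins did not pass: Krt8 differed by 0.10 ± 0.13, Krt18 by 0.07 ± 0.11, Krt17 by -0.09 ± 0.16, Krt14 by -0.02 ± 0.20, Krt5 by -0.27 ± 0.29 and Krt7 by -0.25 ± 0.26. Krt222 was the single keratin called higher, at 435, 484 and 357 against 322, 314 and 308 (0.42 ± 0.13, adjusted p = 0.043), and it lost the call without KO array 1 or 2 or any 1 of the control arrays.

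In all, 20 of 31 tested keratins were called, 1 higher and 19 lower, against 19.1% of probe sets, 9.40% higher and 9.66% lower. Members such as Krt4 (mean 45.9 in KO cells) and Krt76 (62.8) passed the filter through the other groups, so this count is a description. Of all 52 with no filter, 25 passed, 1 higher and 24 lower, against 17.4% of probe sets, with a median of -0.39 log2 for the keratins and 0.05 for all probe sets. With no filter, the lower calls included 4 of 8 suprabasal keratins, 6 of 8 basal and stratified, 4 of 8 inner root sheath, 6 of 14 hair and nail and 3 of 6 simple keratins. The call of Krt10 was lost without control array 8, and that of Krt87 without KO array 1 or 2 or control array 7. Of 16 cornified envelope genes 7 were lower and 0 higher (Crct1 -2.55 ± 0.34, Sprr1a -1.98 ± 0.26), while of the 11 epithelial transcription factors 1, Trp63, was higher (0.45 ± 0.13) and 0 lower. Casp14 (mean 39.1 in KO cells) and Lor (57.7) passed the filter through the other groups, so the envelope count is a description. Of 17 desmosome and anchoring genes 2 were higher and 1, Jup, or plakoglobin, lower (-0.84 ± 0.13). Aire read 3893, 4039 and 4387 in KO cells, within its range in control cells. The sum of fibroblast markers was 4308 to 4527 in KO and 2518 to 2836 in control cells. Its members went both ways: Dcn was higher in KO cells (3569 against 1580), while Pdgfrb (-0.77 ± 0.15 log2) and Col1a1 (-0.36 ± 0.11) were called lower. The part of these markers was not tested.

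**Figure D4:**
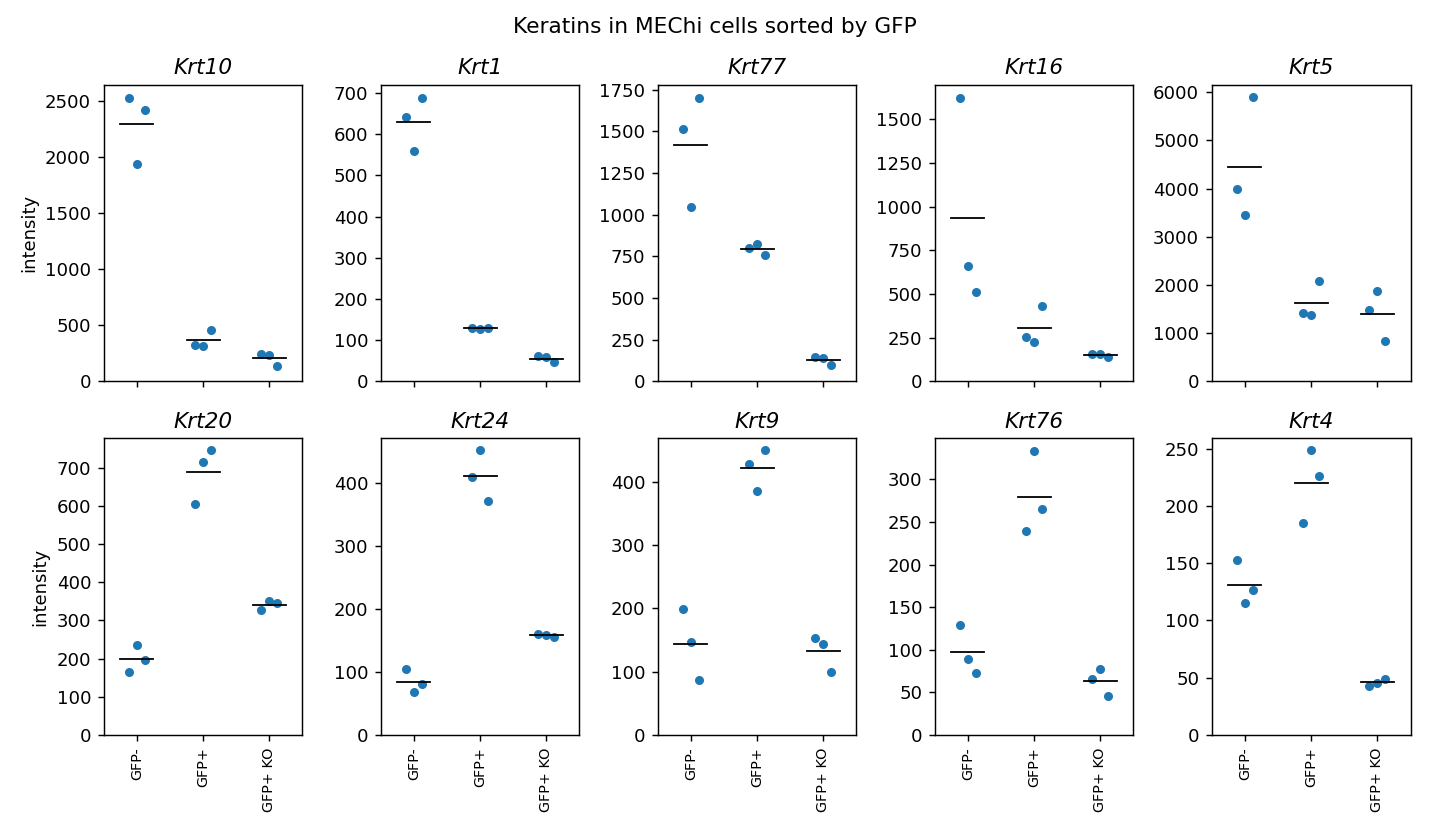
Intensity of 10 keratin genes in each array of GFP-, GFP+ and KO GFP+ medullary cells; black lines are means of 3 arrays. Krt10, Krt1, Krt77, Krt16 and Krt5 are highest in GFP- cells, and Krt20, Krt24, Krt9, Krt76 and Krt4 are highest in control GFP+ cells and lower in KO cells.

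The GFP and KO comparisons share the control GFP+ arrays. The KO and the MEChi-to-MEClo comparisons share no array: 16 genes were both higher in MEChi and lower in KO cells, which is 80.0% of the 20 higher and 84.2% of the 19 lower calls. Of all probe sets, 832 were called in both ways, 29.4% of the 2833 higher and 62% of the 1341 lower calls. Members such as Krt4 and Krt76 passed the filter of each fit through groups where they were high, so this overlap is a description. With no filter the overlap was 21 keratins, 80.8% and 87.5% of their calls, against 39.8% and 65.3% for all probe sets. The 16 were Krt1, Krt4, Krt9, Krt10, Krt15, Krt20, Krt23, Krt24, Krt71, Krt73, Krt75, Krt76, Krt77, Krt82, Krt84 and Krt87. Side by side, Krt77 was 1.62 log2 higher in MEChi than MEClo, 0.81 lower in GFP+ than GFP- cells and 2.66 lower in KO than control cells, while Krt9 was 3.25 higher, 1.63 higher and 1.70 lower in the same 3 comparisons.

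Partner keratins varied together to unequal extents over the 10 epithelial group means, which in part share sorts and ages. The log2 means of Krt1 and Krt10 correlated with a Pearson r of 0.98 and a Spearman rho of 0.95. Krt5 and Krt14 gave 0.78 and 0.81, and Krt8 and Krt18 gave 0.40 and 0.39. Krt6a and Krt16 gave -0.02 and 0.03, with Krt6a high in both Sca1+ groups (158 to 179) and in GFP- cells (117 to 272) and Krt16 high in GFP- cells (514 to 1622) and MEChi cells of 8 weeks (817 and 822).

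Outside the thymic epithelium a few members reached high values in leukocytes. In alveolar macrophages of male C57BL/6 mice of 6 weeks, sorted as MertK+ CD64+ CD11c+ CD11b-, Krt19 read 2212, 2716 and 1984, above every one of the 22 epithelial arrays. In CD11c- CD11b+ lung macrophages it read 70.2, 68.5 and 57.8 (5.13 ± 0.13 log2, adjusted p = 1.6e-12). Krt79, a type II keratin of sebaceous and hair canal epithelium, read 1736, 1904 and 1325 against 124, 73.7 and 92.4 (4.11 ± 0.18, 3.0e-10). Krt8 read 114, 116 and 144 against 161, 180 and 142, and its small lower call (-0.37 ± 0.14, adjusted p = 0.038), with overlapping arrays, was lost in 8 of 13 alternative settings. These 3 of 9 tested keratins, 2 higher and 1 lower, compare with 55.3% of probe sets, 34.4% higher and 20.9% lower. Over all 52 with no filter, 3 were called higher and 0 lower, against 34.0%. Epithelial adhesion genes were also high in alveolar macrophages, Epcam at 527 to 739 against 43.4 to 55.6 and Cdh1 at 655 to 904 against 97.8 to 117. The surfactant gene Sftpc, a defining gene of alveolar epithelium, was lower there than in CD11b+ lung macrophages (139 to 185 against 270 to 364). So was the club cell gene Scgb1a1 (39.1 to 148 against 223 to 276). In lung monocytes, however, both were lower than in alveolar macrophages, at 60.3 to 70.0 and 19.3 to 23.5. Sftpb read 104 to 114 in these monocytes against 116 to 134, and Sftpa1 122 to 148 against 113 to 136. The part of epithelial RNA in the keratin values was not tested.

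Krt80 was high in many myeloid cells. Its group mean was 774 or more in 12 groups: both groups of F4/80-high peritoneal macrophages, eosinophils of blood and fat, all 5 groups of monocytes, blood neutrophils, and CD11b+ and CD11b- dendritic cells of fat. It read 2097, 1328 and 1880 in control peritoneal macrophages and 1732, 1494 and 1975 in Gata6 knockout ones of mixed background, ranges that overlap. Alveolar macrophages read 297 to 318, and the median over all arrays outside the epithelium was 170. In 29 of those arrays it exceeded the highest epithelial value of 619, a GFP- array.

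Krt222 read 663 in the single array titled as spleen B1a B cells, at most 104 in every other non-epithelial array and 50.7 to 484 in the epithelium. The sort markers listed for that array are those of thymocytes rather than B cells, so its identity rests on its title. Krt4 was higher in mast cells than in other leukocytes, at 232, 221 and 220 in skin mast cells and 174, 150, 126 and 190 in arrays titled as peritoneal mast cells, 2 of which are labelled with blood as their tissue. In these male mice of 6 weeks, skin exceeded peritoneal mast cells by 0.51 ± 0.17 log2 for Krt4 (adjusted p = 0.037) and was lower by 0.48 for Krt80 (158 ± 7.18 against 222 ± 28.6, mean ± SD, n = 3 and 4; adjusted p = 0.029). Those 2 of 13 tested keratins, 1 in each direction, compare with 30.3% of probe sets, 12.3% higher and 18.0% lower (17.6% with no filter, where 2 of all 52 keratins were called), and both calls were lost when any 1 of the 3 skin arrays or the peritoneal array numbered 4 was left out.

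**Figure D5:**
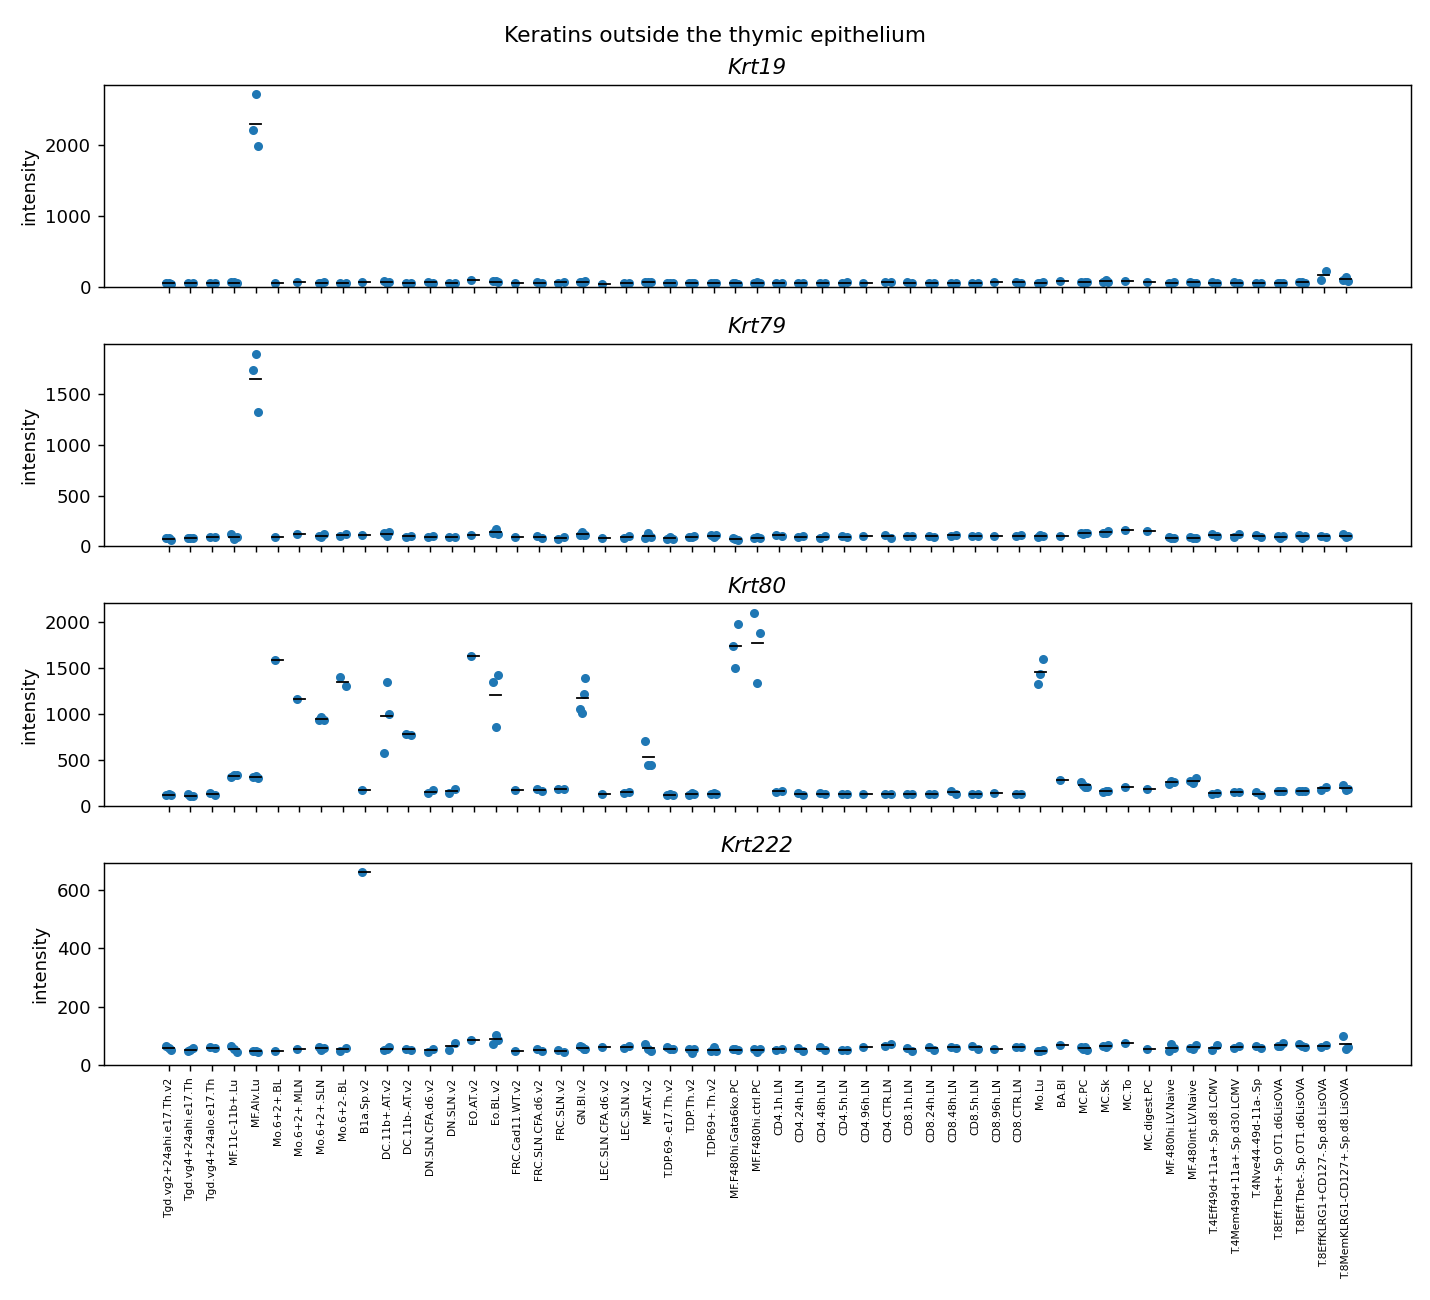
Intensity of Krt19, Krt79, Krt80 and Krt222 in each array of the 55 groups outside the thymic epithelium; black lines are group means. Krt19 and Krt79 stand out in alveolar macrophages, Krt80 in monocytes, granulocytes and peritoneal macrophages, and Krt222 in the single B1a array.

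In lymph node stroma and cultured T cells the keratins stayed near background. In male C57BL/6J mice of 6 weeks, 6 keratins were tested in each stromal comparison and 1, Krt7, was called lower in both double-negative stroma (102 and 106 against 156 and 126; -0.43 ± 0.14 log2, adjusted p = 0.043) and lymphatic endothelium (105 and 95.3; -0.49 ± 0.14, 0.022) than in fibroblastic reticular cells, which both comparisons share. Of all probe sets, 33.5% and 36.3% were called; with no filter the shares were 20.4% and 23.1%, with 0 and 2 of all 52 keratins called. Both Krt7 calls were lost without the first reticular array or either array of the cells compared with it. In lymph node T cells of male C57BL/6 mice of 6 weeks, whose label lists culture with beads carrying antibodies to CD3 and CD28 for the controls too, 9 keratins were tested and 1 was called at 24 h in each lineage, against 53.4% of probe sets in CD4 cells (20.2% lower) and 43.3% in CD8 cells (18.0% lower). Krt7 read 85.0 and 96.7 against 127 and 138 in control CD4 cells (-0.54 ± 0.14, adjusted p = 0.0035). Krt33b read 295 and 306 against 390 and 350 in control CD8 cells (-0.30 ± 0.11, 0.038), a call lost without either 24 h array or the first control array.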

How the data were processed

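Total RNA was measured on Affymetrix arrays. The authors deposited linear intensity values made with Affymetrix Power Tools and RMA, per the submitters' processing notes; no role, build or version is named for them in the labels. Probe sets were named through GEO's platform table: 21425 of 24922 carry 1 symbol, 1399 several and 2098 are not listed there. Keratin members, lists and tests were chosen with earlier results of these data known, and the test between both Sca1+ steps was added later.

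Log2 intensities were fitted with limma 3.58.1 in R 4.3.3 (1 mean per group, eBayes, 2-sided), in 6 fits of related groups and 13 comparisons. Probe sets entered when their highest group mean reached the median of the fit's values (13824 to 15068), and a call is a Benjamini-Hochberg adjusted p under 0.05 over all of them. In data simulated for the MEChi-to-MEClo comparison, with 13337 probe sets, 63% of changes of 1 log2 and 96% of changes of 2 log2 were recovered. Only 100 probe sets were changed at each size, against 5754 called in the real comparison, so these rates hold for the simulated setting. In it, 10 unchanged probe sets were called. Few arrays per group (1 to 4) limit the precision. GFP+ and GFP- arrays with the same number deviated together (r of 0.52, 0.47 and 0.20). A fit paired by that number was therefore also run, though the arrays are known to share only the number. The same r was 0.59 in the cortical Sca1+ step, 0.60 in CD8 cells, 0.34 in double-negative stroma and 0.33 in the medullary Sca1+ step. It lay between -0.24 and 0.04 in the other comparisons where it was computed. The unpaired fit is the one reported for all comparisons. Named with values were the 12 keratins of highest epithelial mean, at most 8 called keratins per direction, at most 4 called genes from the other lists and genes that check a label; other named genes, among them Krt222, Lor, Jup, Trp63 and the non-keratin filaments, were chosen after their values were seen.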

Additional observations from a re-analysis of the deposited data

Results flagged for a closer look

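Chance sets 1 array of a group of 4 apart in about 1 group in 20, and 62 such groups of values were examined. Of the keratin values, 3 stood apart from their group: Krt13 at 69.3 in a blood neutrophil array (the others 92.0 to 96.5), Krt79 at 147.1 in another neutrophil array (109 to 114), and Krt23 at 69.3 in the peritoneal mast cell array numbered 5 (49.6 to 51.7), whose labelled tissue is blood. All 3 lie near the array medians.

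Signal appeared in groups that enter no comparison. Krt80 had its highest such mean, 1769, in control peritoneal macrophages, with 12 groups at or above 774. Krt222 read 663 in the B1a array, against a median group mean of 57.3. Krt4 averaged 214 in the single array MC.To and 195 in MC.digest.PC.

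The step from the reference group to Sca1+ cells differed between cortex and medulla for 5 keratins: Krt19 (3.53 ± 0.34 log2, adjusted p = 9.9e-05), Krt23 (1.24 ± 0.32), Krt18 (-1.17 ± 0.23), Krt8 (-1.04 ± 0.28) and Krt20 (-0.74 ± 0.20). Of 9 keratins tested, 0 differed between CD8 and CD4 cells in their response at 24 h.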

How the results depend on the processing

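Among single called keratins recomputed under alternatives, 1239 values kept direction and call, 110 kept direction but lost the call, and 0 reversed. A stricter filter at the 75th percentile tested fewer keratins and left 9 calls for MEChi against MEClo, 9 for cortex against medulla, 4 for the medullary Sca1+ step, 10 for KO, and 0 each for mast cells, double-negative stroma, lymphatic endothelium and CD4 cells. With all arrays in one fit the counts were 2 for age, 4 for mast cells and 0 each for both stromal comparisons and CD8 cells. With the replicate number as a block, 7 keratins were called in the cortical Sca1+ step, 2 for age and 0 in double-negative stroma. The paired fit of GFP+ and GFP- cells called 23 keratins, 8 higher and 15 lower, and the block moved no other count by over 1.5 times. The shares of all probe sets called with the block are not given, so its keratin counts are descriptions. All arrays paired by the block share only a number. No paired analysis was possible for KO or mast cells because those groups share fewer than 2 numbers. With no filter, 0, 2 and 4 keratins were called in double-negative stroma, lymphatic endothelium and CD4 cells. Double-negative stroma gave 2 calls after quantile normalization and 0 with 32 added before the log or with trended, robust variances; CD4 cells gave 2 calls under both quantile normalization and the added 32. Leaving out 1 array at a time gave 2 to 7 calls for the medullary Sca1+ step, 0 to 3 for mast cells, 0 to 2 for double-negative stroma, 0 to 1 for lymphatic endothelium, 1 to 2 for CD4 cells and 0 to 1 for CD8 cells. Apart from fewer genes tested or fewer arrays, the cause of these changes was not tested. Most keratins outside the epithelium read near or below the array medians, and the number of arrays limits what can be called.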

Other observations

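Intermediate filaments of other families also differed between the epithelial groups. Vimentin (Vim), the filament of mesenchymal cells, averaged 6413 in MEChi and 1591 in CEChi cells of 8 weeks (-2.03 ± 0.18 log2, cortex minus medulla), and desmin (Des), the muscle filament, 679 and 58.2 (-3.53 ± 0.24). Synemin (Synm) and the neurofilament gene Nefm were higher in the cortex, by 2.89 ± 0.24 and 2.66 ± 0.21. The neuronal filament gene Prph was higher in GFP+ than GFP- cells (1.71 ± 0.11) and lower in KO than control cells (-1.56 ± 0.11), and Nefh gave 0.75 ± 0.10 and -1.22 ± 0.10; both comparisons share the control GFP+ arrays. All p-values behind these calls (limma, adjusted over all probe sets) passed the threshold.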
